A study of Mus musculus with 8 samples.

Results

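The genes described here are the 7 classical inhibitors of cyclin-dependent kinases (CDKs) of the mouse, Cdkn1a, Cdkn1b, Cdkn1c, Cdkn2a, Cdkn2b, Cdkn2c and Cdkn2d. They were taken by gene symbol, and each symbol gave a single gene among the 39175 in the deposited tables. The cells were mouse embryonic fibroblasts on a C57BL/6J background, and every group lacked p53. Those with the genotype p53-/- are called p53KO here, and those with the genotype p53-/-Cry1-/-Cry2-/-, which also lack both cryptochromes of the circadian clock, are called p53CryKO. The untreated groups received no UV, and the UV groups received 40 J/m2 of mainly 254 nm light and were collected 16 h later. The 8 samples gave 2 biological replicates to each of the 4 groups. The sources used here do not say whether the replicates came from separate embryos. The labels state no wild-type group, so no value below shows what p53 itself does to these genes.

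CDK inhibitors form a pair of families. The Cip/Kip proteins p21 (Cdkn1a), p27 (Cdkn1b) and p57 (Cdkn1c) bind complexes of cyclins with CDKs, above all CDK2. The INK4 proteins p16 (Cdkn2a), p15 (Cdkn2b), p18 (Cdkn2c) and p19 (Cdkn2d) bind CDK4 and CDK6 and keep them from cyclin D. Cdkn2a also encodes p19Arf from another first exon and reading frame. That protein restrains MDM2, the ligase that destroys p53, and p53 in turn is known to hold Cdkn2a transcription down. Cdkn1a is the best known p53 target gene and is also induced without p53 by other factors.

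The deposited tables hold FPKM, that is, fragments counted per kilobase of transcript and scaled between libraries by the authors. The scaling options are not stated, and FPKM totals over coding genes were not equal between untreated and UV groups, as given below. Each gene has a single value in each group, in which the authors pooled the replicates. No SD over replicates can therefore be given. The authors tested UV against untreated cells within each genotype with Cuffdiff, and a gene was called where the authors' deposited q did not exceed 0.05. Standard errors (SE) of log2 fold changes were derived from the authors' test statistic. The genotypes were scaled in separate tables, so levels set across genotypes carry no test.

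Total reads per sample are unknown. Among longer transcripts, low values of FPKM times kilobases clustered at multiples of a step, read here as 1 fragment. For p53KO cells the step was 0.0111 before and 0.0203 after UV, and for p53CryKO cells 0.00935 and 0.0174. Trp53 was listed at 78.8 to 106 FPKM over the 4 groups, and Cry1 at 3.34 to 4.55. Cry2 had 2.44 FPKM before and 0.488 after UV in p53KO cells, against 4.54 and 1.10 in p53CryKO cells. Transcripts of the deleted genes were thus counted in groups that carry the deletions, and gene-wide FPKM does not check the genotype labels. Of 12 fibroblast markers, Col1a1, Col1a2, Col3a1, Vim, Thy1, Dcn, Fn1 and S100a4 lay between 17.1 and 4558 FPKM in every group. Col1a1, Col1a2, Thy1 and Fn1 were lower in p53CryKO than in p53KO cells before and after UV, and Vim and Dcn were higher. Col3a1 and S100a4 were lower there before and higher after UV. Thy1 had 109 FPKM before and 335 after UV in p53KO cells, against 37.8 and 96.8 in p53CryKO cells. Vim had 1238 and 2502 against 2256 and 4558. Pdgfra had 17.7 FPKM before and 5.66 after UV in p53KO cells, against 3.26 and 1.27 in p53CryKO cells, and Pdgfrb 16.99 and 11.1 against 8.42 and 4.52, so both were lower in p53CryKO cells. Lum and Fap reached at most 0.217. Markers of other cell types were mostly near 0. The 6 epithelial markers summed in p53KO cells to 0.309 FPKM before and 0.371 after UV but to 11.7 and 20.1 in p53CryKO cells, where Krt14 reached 8.97, Krt8 5.76 and Cdh1 3.33 and Krt5 and Epcam reached at most 0.0681. The 5 of 6 leukocyte markers in the tables summed to 3.03 and 13.2 in p53KO and to 3.33 and 12.1 in p53CryKO cells, nearly all Cd68, while Ptprc reached at most 0.00479 and Tyrobp was listed at 0. Endothelial markers summed to 0.642 to 1.43 and muscle markers to 2.19 to 5.59 FPKM. The part of these cells or genes in the results below was not tested.

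All 7 inhibitor genes passed the authors' test in both genotypes, and they went in opposite directions. Cdkn1a, Cdkn1c and Cdkn2a rose after UV, and Cdkn1b, Cdkn2b, Cdkn2c and Cdkn2d fell. Many of the tested genes changed too: 50.9% of 15857 genes tested in p53KO cells were called (23.9% higher, 26.9% lower), and 52.3% of 15872 in p53CryKO cells (25.1% higher, 27.2% lower). With this background, the number of calls alone does not set the family apart. The sizes of the changes vary more than their signs: the falls were 3.11-fold to 11.6-fold and the rises 1.58-fold to 5.22-fold.

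The scale decides how firm the rises are. On the authors' scale the median gene above the FPKM minimum of 1 had a log2 fold change of 0.05 in both genotypes, while the FPKM total over coding genes shifted by 1.01 (p53KO) and 1.02 (p53CryKO) on the log2 scale. With groups set to equal coding FPKM, the 4 falls grew and still passed in both genotypes. Of the rises, that of Cdkn1a in p53CryKO cells (log2 fold change 1.36, q = 0.000536 by a normal approximation) alone passed. On that scale the calls among tested p53KO genes were 3.73% higher and 51.4% lower. Among p53CryKO genes they were 3.37% and 54.6%. Rises and falls below are changes relative to the median gene.

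**Figure D1:**
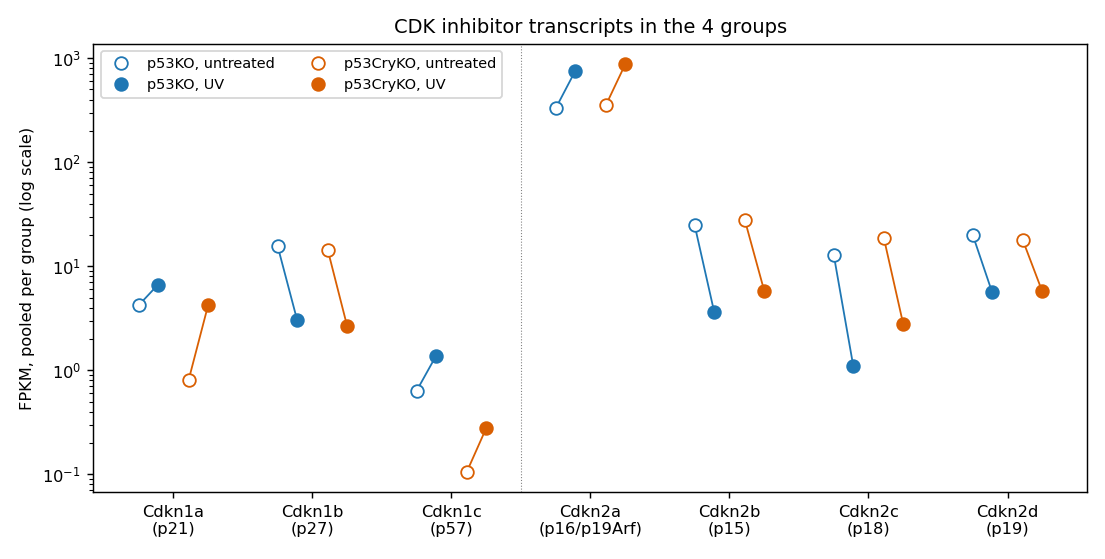
Pooled FPKM (log axis) of the 7 genes, with open circles for untreated and filled circles for UV-treated cells, blue for p53KO and orange for p53CryKO. A line joins the pair of each genotype. No error bars are drawn because the deposited values are pooled. Cdkn2a lies far above the others, and Cdkn1a and Cdkn1c start lower in p53CryKO cells.

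Cdkn1a (ENSMUSG00000023067, chromosome 17, 29090979 to 29100722 of GRCm38, plus strand) encodes p21. RefSeq on GRCm38.p6 gives it start sites 2790 bases apart, and windows of 250 bases before and 50 after each are printed because Cdkn1a is the textbook p53 target and these cells have no p53. Capitals mark matches to the motifs searched.
Cdkn1a upstream start, chr17:29090729-29091028, plus strand: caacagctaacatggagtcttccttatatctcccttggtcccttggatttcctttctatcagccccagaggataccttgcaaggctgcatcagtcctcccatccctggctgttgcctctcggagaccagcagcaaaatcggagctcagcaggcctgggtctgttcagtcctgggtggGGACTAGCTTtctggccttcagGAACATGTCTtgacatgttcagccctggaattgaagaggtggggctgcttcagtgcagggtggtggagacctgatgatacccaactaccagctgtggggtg
Cdkn1a downstream start, chr17:29093519-29093818, plus strand: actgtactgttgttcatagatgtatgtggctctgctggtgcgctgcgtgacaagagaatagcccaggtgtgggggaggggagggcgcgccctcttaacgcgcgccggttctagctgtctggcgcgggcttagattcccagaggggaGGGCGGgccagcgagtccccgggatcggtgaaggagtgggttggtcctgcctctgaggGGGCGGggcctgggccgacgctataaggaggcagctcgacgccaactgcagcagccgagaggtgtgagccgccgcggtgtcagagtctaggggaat

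The motifs were searched on both strands. For p53 they were the 10-base half-site and the full site, a pair of half-sites without a gap. Others were the E-box CACGTG bound by CLOCK and BMAL1, the GC box GGGCGG bound by Sp1, the CRE TGACGTCA, and the forkhead core TGTTTAC. The upstream window held 2 matches to the p53 half-site and no exact full site. The second match, GAACATGTCT, is followed directly by TGACATGTTC, which meets the pattern of the half-site at 9 of 10 positions. A half-site match occurs in 8.36% of all 32851 windows of that length in the RefSeq table, and the full site in 3 of them. The downstream window held no p53 half-site and 2 GC boxes, which 35.7% of all windows hold at least once. Neither window held the E-box (7.15% of all windows), the CRE (1.79%) or the forkhead core (3.65%). A match describes letters and shows no binding.

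In p53KO cells Cdkn1a was listed at 4.21 FPKM before and 6.67 after UV, and in p53CryKO cells at 0.809 and 4.23. In pooled FPKM, untreated p53CryKO cells were thus the lowest group, and the UV-treated p53CryKO level was close to that of untreated p53KO cells. These levels, set across genotypes, carry no test. The log2 fold change was 0.66 (SE 0.31, 1.58-fold, q = 0.00572 in the authors' deposited table) in p53KO cells and 2.38 (SE 0.37, 5.22-fold, q = 0.000161 in the authors' deposited table) in p53CryKO cells. Of all tested genes with a fold change, 66.3% had a lower value in p53KO and 96.1% in p53CryKO cells. The p53KO rise rests on the scale. The log2 fold change became -0.12 at equal FPKM times length and -0.34 at equal coding FPKM. In fragments, which are not corrected for library depth, Cdkn1a stood at about 1343 before and 1168 after UV in p53KO cells. In p53CryKO cells the fragments were about 307 and 861.

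Cdkn1b (ENSMUSG00000003031, chromosome 6, 134920401 to 134925513, plus strand) encodes p27, which accumulates in resting cells. It fell in both genotypes, from 15.6 to 3.05 FPKM in p53KO cells and from 14.4 to 2.66 in p53CryKO cells. The log2 fold changes were -2.35 (SE 0.32, 5.12-fold) and -2.44 (SE 0.28, 5.42-fold), with q = 0.000169 and 0.000161 in the authors' deposited tables. Of tested genes, 4.69% had a lower fold change in p53KO cells. The untreated groups and the UV-treated groups of the genotypes lay close together.

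Cdkn1c (ENSMUSG00000037664, chromosome 7, 143458350 to 143461050, minus strand) encodes p57, an imprinted gene expressed mainly from the maternal allele. It was the lowest member in 3 of the 4 groups and rose from 0.637 to 1.38 FPKM in p53KO cells and from 0.105 to 0.277 in p53CryKO cells. The log2 fold changes were 1.12 (SE 0.42, q = 0.000764 in the authors' deposited table) and 1.40 (SE 0.75, q = 0.0285 in the authors' deposited table). The interval of the p53CryKO change, -0.06 to 2.86 at 95%, reaches 0, since the SE from the test statistic is wider than the authors' p implies. Its depth was small, about 117 and 139 fragments in p53KO and 22.9 and 32.4 in p53CryKO cells. The call in p53CryKO cells was lost at a q of 0.01, and with a pseudocount of 1 the log2 fold change was 0.54 in p53KO and 0.21 in p53CryKO cells. GENCODE M21 places an antisense transcript over Cdkn1c and an opposite-strand model of uncertain status over Cdkn1a, and no source used here says whether the authors counted by strand.

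The balance among the Cip/Kip transcripts shifted with these changes. Their summed FPKM was 20.5 before and 11.1 after UV in p53KO cells, against 15.3 and 7.16 in p53CryKO cells. In p53KO cells Cdkn1a made up 20.6% of that sum before and 60.1% after UV, and in p53CryKO cells 5.28% and 59.0%. Cdkn1b made up 76.3% and 27.5%, and 94.0% and 37.2%. These shares are ratios within a group and do not depend on the scaling between groups.

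Cdkn2a (ENSMUSG00000044303, chromosome 4, 89274471 to 89294653, minus strand) and Cdkn2b (ENSMUSG00000073802, chromosome 4, 89306289 to 89311032, minus strand) are neighbours, 11636 bases apart. Their windows are printed because they share a locus and moved in opposite directions. The Cdkn2a start sites lie 12427 bases apart, the first for p19Arf and the second for p16.
Cdkn2a p19Arf start, chr4:89294570-89294869, minus strand: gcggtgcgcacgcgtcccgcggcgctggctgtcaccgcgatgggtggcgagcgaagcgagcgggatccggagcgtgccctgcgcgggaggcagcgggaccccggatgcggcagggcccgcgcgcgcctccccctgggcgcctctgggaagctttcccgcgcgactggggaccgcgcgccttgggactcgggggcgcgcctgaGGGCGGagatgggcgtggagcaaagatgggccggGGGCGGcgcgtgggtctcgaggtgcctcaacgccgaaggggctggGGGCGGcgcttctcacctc
Cdkn2a p16 start, chr4:89282143-89282442, minus strand: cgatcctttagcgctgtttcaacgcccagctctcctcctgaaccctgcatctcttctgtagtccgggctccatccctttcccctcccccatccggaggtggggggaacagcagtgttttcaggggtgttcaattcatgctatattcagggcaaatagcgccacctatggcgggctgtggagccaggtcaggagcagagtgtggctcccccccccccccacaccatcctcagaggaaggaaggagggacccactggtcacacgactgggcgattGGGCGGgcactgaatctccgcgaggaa
Cdkn2b start, chr4:89310983-89311282, minus strand: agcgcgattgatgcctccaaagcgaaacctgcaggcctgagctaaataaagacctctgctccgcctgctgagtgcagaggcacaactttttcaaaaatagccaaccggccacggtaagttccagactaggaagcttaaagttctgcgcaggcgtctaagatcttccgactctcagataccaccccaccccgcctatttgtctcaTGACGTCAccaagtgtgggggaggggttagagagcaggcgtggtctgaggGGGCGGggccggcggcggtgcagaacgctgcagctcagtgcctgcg

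The p19Arf window held 3 GC boxes, the p16 window 1, and the Cdkn2b window 1 together with a CRE. None of the 3 held the p53 half-site or the E-box. RefSeq had windows for 6 of the 7 members, 9 windows in all, and the E-box occurred in 1 of them, at the second start of Cdkn2c. The p53 half-site was not particular to Cdkn1a, as the window of Cdkn2d, which fell, held 1 match. GC boxes were likewise held by the windows of other falling genes: Cdkn1b (1), Cdkn2d (5) and the first start of Cdkn2c (4).

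Cdkn2a was the most abundant member in every group, listed at 329 FPKM before and 749 after UV in p53KO cells and at 351 and 871 in p53CryKO cells. It ranked between 207 and 221 among all genes of the tables in the 4 groups. The log2 fold change was 1.19 (SE 0.29, 2.28-fold, q = 0.000169 in the authors' deposited table) in p53KO and 1.31 (SE 0.25, 2.48-fold, q = 0.000161 in the authors' deposited table) in p53CryKO cells. Of tested genes, 79.2% and 83.7% had a lower fold change. At equal coding FPKM the log2 fold changes were 0.18 and 0.29 and no longer passed. The FPKM covers the whole gene, so the shares of p16 and p19Arf are unknown.

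Cdkn2b encodes p15, an inhibitor known for its induction by TGF-beta. It went from 24.7 to 3.64 FPKM in p53KO cells and from 27.9 to 5.81 in p53CryKO cells. The log2 fold changes were -2.76 (SE 0.31, 6.76-fold) and -2.27 (SE 0.27, 4.81-fold), with q = 0.000169 and 0.000161 in the authors' deposited tables. It stood second among the members in both untreated groups. Its UV-treated levels lay far below both untreated ones.

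Cdkn2c (ENSMUSG00000028551, chromosome 4, 109660876 to 109667189, minus strand) encodes p18 and showed the deepest fall of the family. It went from 12.9 to 1.11 FPKM in p53KO cells, a log2 fold change of -3.54 (SE 0.44, 11.6-fold, q = 0.000169 in the authors' deposited table). It ranked 106 from the bottom among 15527 tested genes with a fold change in that genotype. In p53CryKO cells it went from 18.8 to 2.77 FPKM, a log2 fold change of -2.76 (SE 0.32, 6.77-fold, q = 0.000161 in the authors' deposited table). In p53KO cells Cdkn2c moved from the fifth place among the members to the last.

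Cdkn2d (ENSMUSG00000096472, chromosome 9, 21288463 to 21291209, minus strand) encodes p19 of the INK4 family, a protein distinct from p19Arf. It went from 20.0 to 5.59 FPKM in p53KO cells and from 17.8 to 5.72 in p53CryKO cells. The log2 fold changes, -1.84 (SE 0.31, 3.57-fold) and -1.64 (SE 0.28, 3.11-fold), were the smallest of the 4 falls. The q values were 0.000169 and 0.000161 in the authors' deposited tables. Cdkn2d took the third place by FPKM in 3 of the 4 groups.

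Cdkn2a held most of the family's summed FPKM before UV and a larger share after it. In p53KO cells the 7 genes summed to 407 FPKM before and 771 after UV, of which Cdkn2a held 80.9% and 97.2%. In p53CryKO cells the sums were 431 and 893, and Cdkn2a held 81.5% and 97.6%. The 6 others together had 77.9 and 21.5 FPKM in p53KO cells, against 79.9 and 21.5 in p53CryKO cells. The INK4 genes other than Cdkn2a went from 57.5 to 10.3 and from 64.5 to 14.3. Sums of pooled values have no error, and the order of neighbouring members within a group could not be tested.

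**Figure D2:**
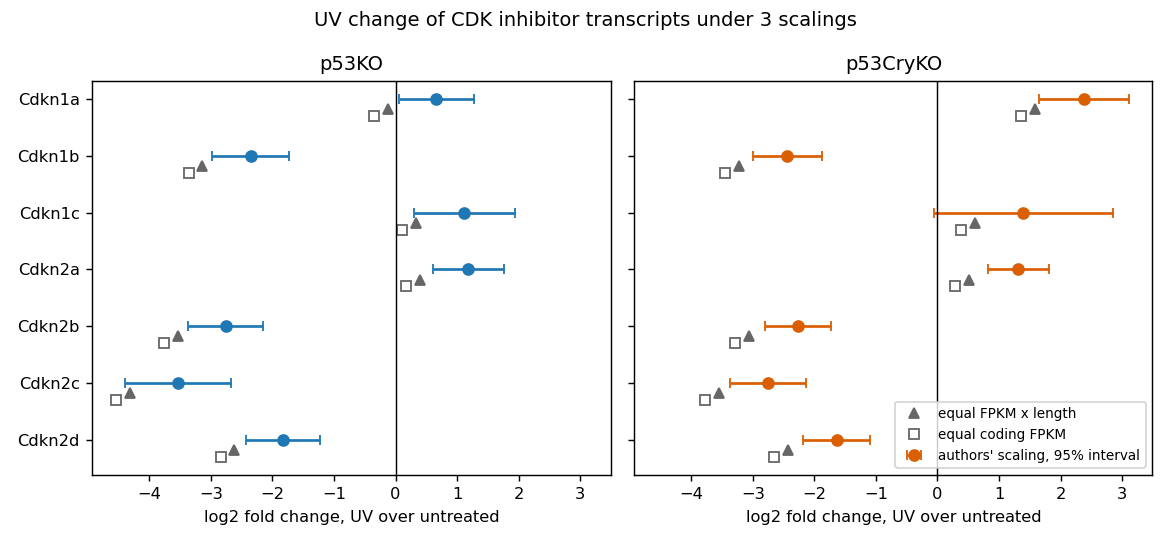
Log2 fold change after UV of each gene in p53KO (left) and p53CryKO cells (right). Circles with bars give the change on the authors' scale with a 95% interval from the implied SE, triangles the change at equal FPKM times length and squares at equal coding FPKM. The 4 falling genes lie left of 0 on every scale, and Cdkn1a in p53KO cells crosses 0.

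Whether the UV response of these genes differed between the genotypes was tested by subtracting the p53KO from the p53CryKO log2 fold change and dividing by the SE. The genotypes also differed in the epithelial and fibroblast markers given above, so the part of cryptochrome loss was not tested. The test is a normal approximation on the pooled Cuffdiff values, since an exact test needs replicate values, and its q was adjusted over 12300 genes. None of the 7 passed, against 0.179% of the 12300 genes in either direction and 0.0732% higher in p53CryKO. At an unadjusted threshold of 0.05, 1 of the 7, Cdkn1a, was past it, against 3.03% of the 12300 genes. Cdkn1a had a difference of 1.72 (SE 0.49, 95% interval 0.77 to 2.67, q = 0.129), rank 37 of the 12300 by the test. This test is sensitive to the error used. With the error taken from the authors' p where that p lies above its smallest value, an alternative added after seeing the data, the q of Cdkn1a was 0.0141, and 0.667% of the 12300 genes were called. Dividing errors by the median ratio between a normal quantile of p and the test statistic gave 0.000114, taking the error from p throughout gave 0.386, and a pseudocount of 1 gave 0.365. The scaling between conditions did not matter for it, since the shifts of the genotypes differed by 0.01.

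In the pooled FPKM the genotypes lay further apart in Cdkn1a before UV than after it. That narrowing is the same contrast as the difference of 1.72 tested above, which did not pass (q = 0.129 by the normal approximation). Set side by side across the separately scaled tables, p53KO cells had 5.20 times the FPKM of p53CryKO cells when untreated and 1.58 times after UV. The untreated ratio is larger in size than that of 97.0% of 12300 genes, whose median log2 ratio was -0.07. In the untreated groups Cdkn1c had a like gap, 6.05-fold, which remained at 4.98-fold after UV. The gap in Cdkn1c after UV was larger than that of 97.0% of genes. For the other members the untreated levels differed between genotypes by at most 0.55 on the log2 scale (Cdkn2c). After UV, Cdkn2c was higher in p53CryKO cells by 1.32 on that scale. These ratios rest on pooled values without a test, and the p53CryKO cells also had the epithelial transcripts given above.

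For the remaining members the interval of the difference shows what could be missed. It was -0.92 to 0.75 for Cdkn1b, -0.63 to 0.88 for Cdkn2a and -0.62 to 1.01 for Cdkn2d. It was -0.32 to 1.30 for Cdkn2b, -0.29 to 1.84 for Cdkn2c and -1.39 to 1.96 for Cdkn1c. Each had a q of 1.000. The intervals are wide, so equal responses are not shown.

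**Figure D3:**
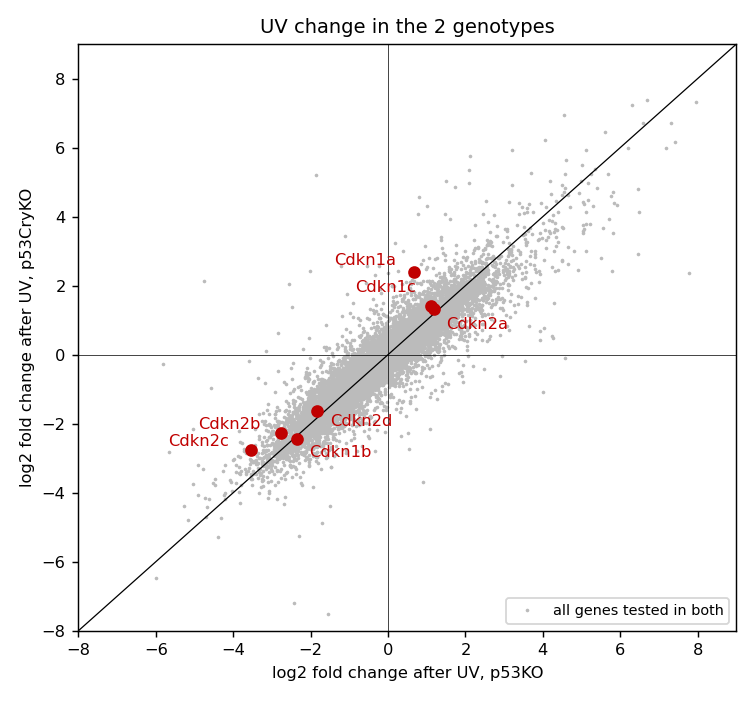
Log2 fold change after UV in p53KO cells (horizontal) against p53CryKO cells (vertical) for 12300 genes tested in both genotypes (grey) and the 7 CDK inhibitor genes (red). The diagonal marks equal change. Cdkn1a lies 1.72 above it, and the other 6 lie within 0.78 of it.

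By the distance between log2 FPKM of the 4 groups, each centred on its mean, the genes most like Cdkn1a among 10712 were Fam132a, Mgp, Mustn1, Arc and Nupr1, at distances of 0.53, 0.55, 0.57, 0.57 and 0.63. Mgp encodes an inhibitor of calcification, Arc is an immediate-early gene of neurons and Nupr1 a stress-induced chromatin protein. Mgp had 58.1 FPKM before and 103 after UV in p53KO cells, against 9.35 and 39.5 in p53CryKO cells. Arc went from 3.29 to 8.51 and from 1.02 to 4.40. All 5 rose in both genotypes in the authors' deposited tables, from a lower untreated level in p53CryKO cells. They were picked for nearness to Cdkn1a over these same values, so the shared pattern follows from the choice and is no separate result. With correlation as the measure, or with a pseudocount of 1, none of the 5 was again among the 5 nearest, so the choice rests on the measure.

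The genes around the inhibitors were read as 8 lists. Over all tested genes the median change on the log2 scale was 0.10 (p53KO) and 0.09 (p53CryKO). Of 11 CDKs and cyclins, the targets of the inhibitors, 1 rose and 8 fell in each genotype (medians -1.53 and -1.64). Cdk1, the mitotic kinase, had 275 FPKM before and 25.4 after UV in p53KO cells, against 273 and 61.6 in p53CryKO cells. Cdk2 went from 30.4 to 7.20 and from 28.9 to 7.54, and cyclin E2 (Ccne2) from 8.22 to 3.02 and from 8.46 to 1.91. The member that rose, Cdk4, the partner of the INK4 proteins, was singled out after its values were seen with 707 FPKM before and 1818 after UV in p53KO cells, against 730 and 1833 in p53CryKO cells. Of the 3 Rb family genes, on which CDKs act, 0 rose and 1 fell in p53KO cells (Rbl2, 8.64 to 4.08 FPKM) and 0 passed in p53CryKO cells (Rbl2, 5.25 to 2.67, q = 0.0510 in the authors' deposited table).

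Genes that act on the inhibitor proteins moved both ways. Of 11 genes of inhibitor protein turnover, 4 rose and 2 fell in p53KO cells and 5 rose and 2 fell in p53CryKO cells (medians 0.45 and 0.39). Skp2, the F-box protein that marks p27 for destruction, fell from 15.8 to 2.41 FPKM and from 15.9 to 2.33. Dtl, which directs p21 to the CUL4 ligase, fell from 8.19 to 3.22 and from 8.58 to 3.88, and Rnf123, a ligase subunit for p27, rose from 5.45 to 15.2 and from 5.59 to 13.5. For RNA-binding proteins linked to inhibitor messages, 0 rose and 7 fell of 9 tested in p53KO cells while in p53CryKO cells 5 of 8 fell and 0 rose (medians -1.20 and -0.95). Pum2, which binds the p27 message, fell, with log2 fold changes of -1.69 in p53KO and -1.75 in p53CryKO cells. Rbm38, which stabilizes the p21 message, fell too (-1.60 and -1.81).

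Among the known transcriptional activators of inhibitor genes, 2 rose and 9 fell of 18 tested in p53KO cells while in p53CryKO cells 8 of 15 fell and 2 rose (medians -0.64 and -0.92). Sp1, which binds GC boxes like those printed above, went from 12.2 to 0.995 FPKM and from 9.18 to 1.32. Foxo1, a forkhead activator of Cdkn1b, went from 2.32 to 0.272 and from 1.22 to 0.231. Egr1, an immediate-early factor known to activate CDKN1A in human cells, rose from 37.1 to 98.0 and from 3.83 to 32.6. Its difference between genotypes passed (1.68, SE 0.39, q = 0.0121), with a lower untreated level in p53CryKO cells. A link to Cdkn1a, whose own difference did not pass, was not tested. Klf4, another activator of Cdkn1a, was singled out after its values were seen. It rose from 1.24 to 3.28 FPKM in p53KO cells, fell from 12.8 to 6.78 in p53CryKO cells, and differed by -2.31 (SE 0.43, q = 0.000233). At equal coding FPKM the log2 fold changes of Egr1 and Klf4 in p53KO cells were 0.39 each and were not called higher. The p53 relatives, which can bind p53 elements, were low: Trp63 was listed at 1.20 and 0.652 FPKM in p53KO cells, against 0.0360 and 0.0177 in p53CryKO cells, and Trp73 at 0 in the 4 groups.

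Among the repressors, 0 rose and 9 fell of 12 tested in p53KO cells while in p53CryKO cells 10 of 12 fell and 0 rose (medians -1.89 and -1.94). Id1, an inhibitor of E proteins that holds p16 down, went from 242 to 26.0 FPKM and from 178 to 22.2. The Polycomb gene Cbx8 went from 5.45 to 1.52 and from 4.48 to 0.570, and Zbtb7a, a repressor of Arf transcription, from 8.67 to 1.96 and from 7.10 to 0.990. Of 11 clock factors, 2 rose and 3 fell of 10 tested in p53KO cells while in p53CryKO cells 7 of 10 fell and 1 rose (medians -0.32 and -0.84). Per2 and Cry2 fell, with log2 fold changes of -2.84 and -2.32 in p53KO cells and of -2.70 and -2.05 in p53CryKO cells, where the Cry2 value is that of transcripts from a gene deleted by label. Rora, a nuclear receptor of the clock, rose from 0.428 to 1.85 FPKM in p53KO cells and was listed at 0.0697 and 0.141 in p53CryKO cells (q = 0.248 in the authors' deposited table). Of 10 proliferation markers, 1 rose and 5 fell in p53KO cells and 2 rose and 3 fell in p53CryKO cells (medians -0.46 and -0.08). Top2a fell by 1.51 on the log2 scale in p53KO cells and had -0.49 in p53CryKO cells (q = 0.117 in the authors' deposited table). Rrm2 fell (-0.99 and -1.17), and Tyms rose by 1.01 and 0.99, a value that turned negative at equal coding FPKM in both genotypes (-0.00113 and -0.0267).

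**Figure D4:**
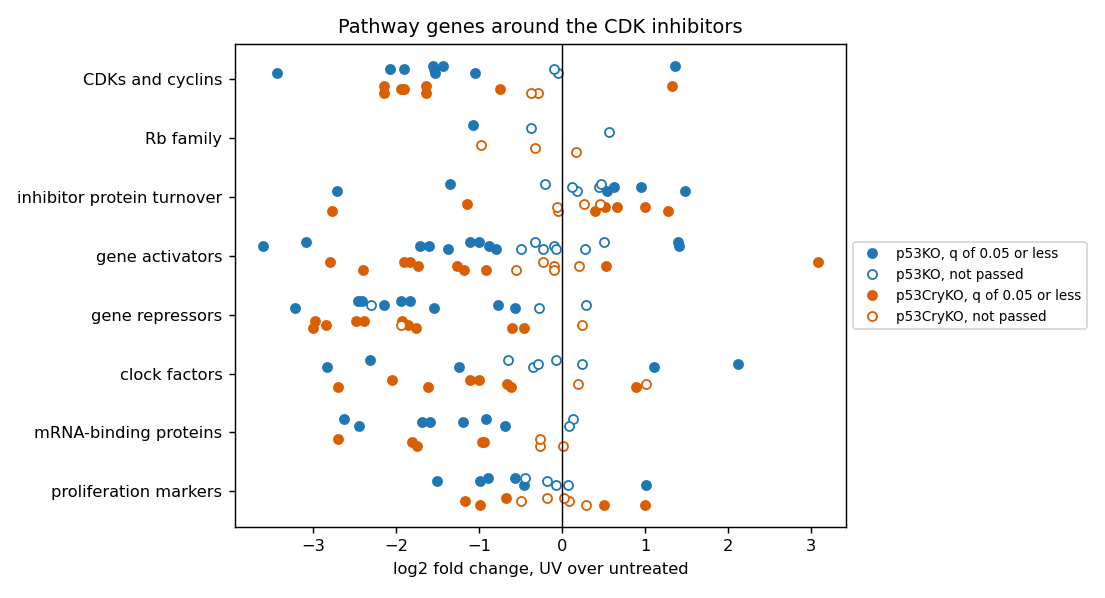
Log2 fold change after UV of the tested genes of the 8 lists, blue for p53KO and orange for p53CryKO, filled where the authors' deposited q did not exceed 0.05. Points are spread vertically for legibility only. The CDK and cyclin, repressor and mRNA-binding lists lie mostly left of 0, and the orange point at 3.09 is Egr1.

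Over the 8 lists, 10 of 84 tested genes rose and 44 fell in p53KO cells, beside 23.9% and 26.9% of all tested genes. In p53CryKO cells 11 of 80 rose and 43 fell, beside 25.1% and 27.2%. These are 108 calls, 21 higher and 87 lower. At equal coding FPKM there were 145 calls, 1 higher and 144 lower, on the scale where 3.73% (p53KO) and 3.37% (p53CryKO) of all tested genes were higher and 51.4% and 54.6% lower. The 1 higher call on that scale was Egr1 in p53CryKO cells.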

How the data were processed

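Per the labels' protocols, poly(A) RNA was sequenced from both ends after TruSeq library preparation. The submitters' processing notes name the aligner STAR 2.5.2, the trimmer Trimmomatic 0.35, FastQC 0.11.5, Cuffdiff, Cufflinks and GRCm38, with no options. For each genotype the authors deposited 1 pooled FPKM per gene and condition, a signed test statistic (a score), and p-values and q-values, per the file headers. The smallest deposited p was 5e-05. A deposited table combining both genotypes was not used.

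Log2 fold changes were computed from FPKM without a pseudocount. The SE was the log2 fold change over the test statistic. A normal quantile of p was 1.44 times the statistic in the median, so this SE is wide. The genotype difference over its SE was read against the normal curve. Its q is the Benjamini-Hochberg value over genes tested in both genotypes with FPKM of 1 or more in a group. A check on simulated data drew its errors from these same SE, so it could not show whether the SE is right. For other scalings of the UV change within a genotype, errors were matched to the authors' p where it lay above its smallest value. At that smallest p, they came from the larger of the test statistic and the normal quantile of that p. These normal approximations rest on 2 pooled replicates a group, and no exact test is possible without replicate values.

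The members and gene lists were chosen with earlier results of these data known. Named genes were the 7 members, up to 3 called genes of largest change per list, the deleted genes and the 5 genes nearest to Cdkn1a, of which 1 list gene is not reported here. Cell type markers, and Trp63, Trp73, Cdk4 and Klf4, whose values had been seen, were named outside this rule. GENCODE M21 gave lengths and strands, and RefSeq on GRCm38.p6 the promoter windows, whose motifs were chosen with the sequences in view. Calculations used pandas 2.3.3 and scipy 1.17.1 with numpy 2.4.6 under Python 3.11.15, and plots matplotlib 3.10.9.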

Additional observations from a re-analysis of the deposited data

Results flagged for a closer look

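The UV change of 2 list genes differed between the genotypes by the test of the difference, out of 79 list genes and 7 members tested, against 0.179% of all 12300 genes. The lists were chosen with earlier results of these data known, and Klf4 was singled out after its values were seen. The count set against that share is thus no test of the lists. Klf4 changed in opposite directions, with a difference of -2.31 (SE 0.43, q = 0.000233). Egr1 rose in both genotypes, with a difference of 1.68 (SE 0.39, q = 0.0121) and a lower untreated level in p53CryKO cells. The p53KO rises of both genes rest on the scale. At equal coding FPKM they were 0.39 each on the log2 scale and were not called.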

How the results depend on the processing

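The falls of Cdkn1b, Cdkn2b, Cdkn2c and Cdkn2d kept their direction and their call in both genotypes under a q of 0.01, a minimum log2 fold change of 1, adjustment over genes with FPKM of 1 or 5 or more, and all scalings tried. In p53KO cells 7 members were called, beside 50.9% of all tested genes. At equal coding FPKM 4 were called and at equal FPKM times length 4, all lower after UV. Of all tested p53KO genes, 51.4% were lower and 3.73% higher at equal coding FPKM, and 45.4% and 6.13% at equal FPKM times length. Cdkn1a in p53KO cells turned to -0.34 and -0.12 on these scales. In p53CryKO cells 5 of 7 were called on both, 4 lower and 1 higher. Beside them, 54.6% of all tested p53CryKO genes were lower and 3.37% higher at equal coding FPKM. At equal FPKM times length the shares were 47.7% and 5.67%. The counts alone thus do not set the members apart. The cause of the unequal scales was not tested. For the difference between genotypes, 0 members were called, and 1, Cdkn1a, with errors divided by the median ratio (213 of all genes called) and 1, Cdkn1a, with errors from p above its smallest value (82 of all genes called). The other error, filter, pseudocount and scaling alternatives called 0 members, and all genes called went from 22 to 39 with errors from the authors' p throughout and to 98 with a pseudocount of 1. With a pseudocount of 1 the Cdkn1c difference turned to -0.33 (q = 1.000). No paired analysis was possible because the deposited values are pooled over replicates, and for the same reason no replicate could be left out. Low FPKM limits Cdkn1c most.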
